A study of Homo sapiens with 6 samples.

Results

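Butyrophilins of the BTN3A and BTN2A groups and genes of the MHC class I pathway were followed in a human retinal pigment epithelium cell line given miR-204-5p or the control miR-NC. The set held 9 of the 60612 genes of the deposited table, matched by gene symbol among the rows with a protein-coding transcript. Of these, 4 are butyrophilins (BTN3A1, BTN3A2, BTN3A3 and BTN2A1) and 5 belong to class I presentation (HLA-B, HLA-C, B2M, TAP1 and TAP2). BTN3A3 was selected on its lower level with miR-204-5p in these same libraries, so its difference between the groups is given as a description, with no test. The other members were named beside it as relatives or as class I genes.

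ARPE-19 is an established line grown out of retinal pigment epithelium, and miR-204-5p is a microRNA known for its abundance in that tissue. Cells were transfected with miR-204-5p in 3 libraries and with the control miR-NC in 3 libraries, and poly(A) RNA was sequenced as paired ends from libraries that keep the strand. The question stated for the series was which transcripts miR-204-5p may target. Both groups come from the same cell line, the submitters call the replicates biological, and the level of miR-204-5p itself was not analysed here.

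Butyrophilins are membrane proteins of the immunoglobulin superfamily. BTN3A1 binds phosphoantigens, small isoprenoid phosphates, through its inner B30.2 domain, and together with BTN2A1 it presents that state of the cell to a subset of gamma delta T cells. MHC class I molecules show peptides to CD8 T cells and natural killer cells: a heavy chain such as HLA-B or HLA-C pairs with beta-2 microglobulin, the product of B2M, and is loaded with peptides that the TAP1 and TAP2 pump brings into the endoplasmic reticulum. Interferons raise the transcription of most of these genes in many cell types. A microRNA is led to a transcript mainly by pairing of its seed, bases 2 to 8, with the 3′ UTR.

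The microRNA and the 1 stretch that matched its seed among the members are shown first, since they bear on the question of targets. The mature miR-204-5p lies at chr9:70810031-70810052 on the minus strand (GRCh38.p14, RefSeq), with the seed in capitals. The stretch of BTN3A1 lies at chr6:26414655-26414684 on the plus strand (GRCh38, GENCODE 29), in its 3′ UTR, with the 6 bases that match in capitals.
miR-204-5p: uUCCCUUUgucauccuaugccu
BTN3A1 site: aaatttggatgAAGGGAgctagaagaaata

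The longest 3′ UTR annotated for a gene was searched for the 6mer AAGGGA and for the longer sites that contain it, which are 7mer-A1 (AAGGGAA), 7mer-m8 (AAAGGGA) and 8mer (AAAGGGAA). BTN3A1 held 1 site, a 6mer, in a 3′ UTR of 1524 bases. The other 8 members held none of these letters in theirs, BTN3A3 with 1004 bases included. Among the 10845 tested genes with such a sequence, 39.8% held at least 1 site and 60.2% held none. BTN3A1, the member with the site, had means of 0.904 FPKM with miR-204-5p and 0.577 FPKM with miR-NC, with overlapping groups. BTN3A3, picked for its lower level with miR-204-5p, had no match in this window, and nothing is read from that. Whether miR-204-5p acts on any member through such a site was not tested. Sites outside the longest annotated 3′ UTR, and pairing without a full seed, were not looked for.

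The libraries differed among themselves in ways the groups do not explain. On the leading axis of variation, which held 54.1% of the variance of log2(FPKM + 1), replicate 3 lay at 41.1 with miR-204-5p and 32.4 with miR-NC, while replicate 2 lay at -29.6 with miR-204-5p and -33.1 with miR-NC. Replicate 1 lay at 15.3 with miR-204-5p and at -26.1 with miR-NC. RN7SK, a small nuclear RNA without a poly(A) tail, stood at 360.5 FPKM in miR-204-5p replicate 3 and between 5.24 and 14.5 FPKM in the other libraries. FPKM scales fragments by transcript length and by the mapped fragments of the library, so levels can be set side by side between genes. Depth was not given, and the spacing of low values corresponded to roughly 19000000 to 23200000 read pairs per library.

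Markers were looked up to check the labelled cell type and to see whether other cells were present. Of 24 pigment epithelium markers, 13 passed the filter on low values, KRT18 among them at 194 to 249 FPKM, and 10 stayed under 0.5 FPKM everywhere. Means over the 6 libraries were 7.31 FPKM for OTX2, 5.64 for RDH5, 4.90 for BEST1, 3.95 for RLBP1 and 1.52 for MITF. EZR was the 1 of the 13 without overlap, at 128, 140 and 111 FPKM with miR-204-5p, against 186, 194 and 165 FPKM with miR-NC. PMEL, which did not pass the filter, was likewise without overlap. It had 0.291, 0.279 and 0.164 FPKM with miR-204-5p, against 0.331, 0.455 and 0.620 FPKM with miR-NC. The visual cycle gene RPE65 stayed at or under 0.0294 FPKM, and TYR and TTR were listed at 0 in all 6 libraries. PTPRC, the marker carried by nearly all leukocytes, stood at 0.288 to 0.51 FPKM, and all 7 endothelial markers stayed under 0.5 FPKM. The summed FPKM of 20 leukocyte markers was 33.7 to 50.9 with miR-204-5p and 41.8 to 48.9 with miR-NC, most of it CD68, and that of 10 fibroblast markers was 19.3 to 23.4 with miR-204-5p and 15.4 to 18.1 with miR-NC, most of it ACTA2. TRDC, the constant chain of the gamma delta T cell receptor, had 1.23, 1.17 and 0.989 FPKM with miR-204-5p, against 1.79, 1.92 and 2.56 FPKM with miR-NC, without overlap. LYZ, the lysozyme of myeloid cells, had 0.0254, 1.21 and 0.272 FPKM with miR-204-5p, was listed at 0 in all miR-NC libraries and did not pass the filter. Among the 13151 tested genes 2.17% lay wholly below and 3.77% wholly above with miR-204-5p. No other leukocyte marker separated the groups. TRAC and CD2 had means of 1.65 and 0.559 FPKM with miR-204-5p, against 1.64 and 0.411 FPKM with miR-NC. The fibroblast markers ACTA2, THY1 and COL1A2 were higher in every miR-204-5p library, but THY1 stayed at or under 0.312 FPKM. COL1A2 had 0.00426, 0.00441 and 0.948 FPKM with miR-204-5p, against 0, 0 and 0.00424 FPKM with miR-NC. No other fibroblast marker separated the groups. The means of PDGFRB and POSTN were lower with miR-204-5p, at 1.52 and 0.447 FPKM, against 2.32 and 0.528 FPKM with miR-NC. The part of other cells in the results was not tested.

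BTN3A3, which carries a B30.2 domain but does not bind phosphoantigens as BTN3A1 does, was the member with the widest range. It had 0.127, 0.724 and 0.139 FPKM in miR-204-5p replicates 1, 2 and 3, against 1.58, 1.50 and 1.71 FPKM in miR-NC replicates 1, 2 and 3. All 3 miR-204-5p libraries lay below all 3 miR-NC libraries, and miR-204-5p replicate 2 stood apart from the other pair of its group, between them and the control values. The means were 0.330 ± 0.341 FPKM with miR-204-5p and 1.60 ± 0.106 FPKM with miR-NC (SD, n = 3 each). The difference was -0.996 on the log2(FPKM + 1) scale and -2.26 with a pseudocount of 0.1, since the pseudocount of 1 understates the change of a gene at this level.

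In the authors' deposited table BTN3A3 was marked as changed, with a ratio of 0.206, a p of 0.000336 and a q of 0.19. That table marked 194 of 60612 genes, and 16 genes in it had a q under 0.05. With each library left out in turn its log2 difference ran from -1.20 to -0.89, and without replicate 3 of both groups it was -0.87. These values describe the libraries it was picked on and are no support for the difference. The low values rest on few reads, at the rough depth above about 2.77, 15.2 and 2.64 read pairs per kilobase of transcript with miR-204-5p, against 35.2, 34.9 and 35.7 with miR-NC. BTN3A3 passed the filter of 0.5 FPKM in at least 3 libraries through 1 miR-204-5p and all 3 miR-NC libraries.

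BTN3A3 was the only 1 of the 9 members whose groups did not overlap in deposited FPKM, where 2.17% of the 13151 tested genes lay wholly below with miR-204-5p and 3.77% wholly above. Since BTN3A3 was picked for this, nothing is read from that count. BTN2A1 joined it in this respect after scaling by medians of ratios, where 2.9% of tested genes lay wholly below with miR-204-5p, and after quantile normalization, where 2.93% did. Its scaled values by medians of ratios were 5.13, 6.80 and 5.62 with miR-204-5p, against 8.08, 7.49 and 7.00 with miR-NC.

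**Figure D1:**
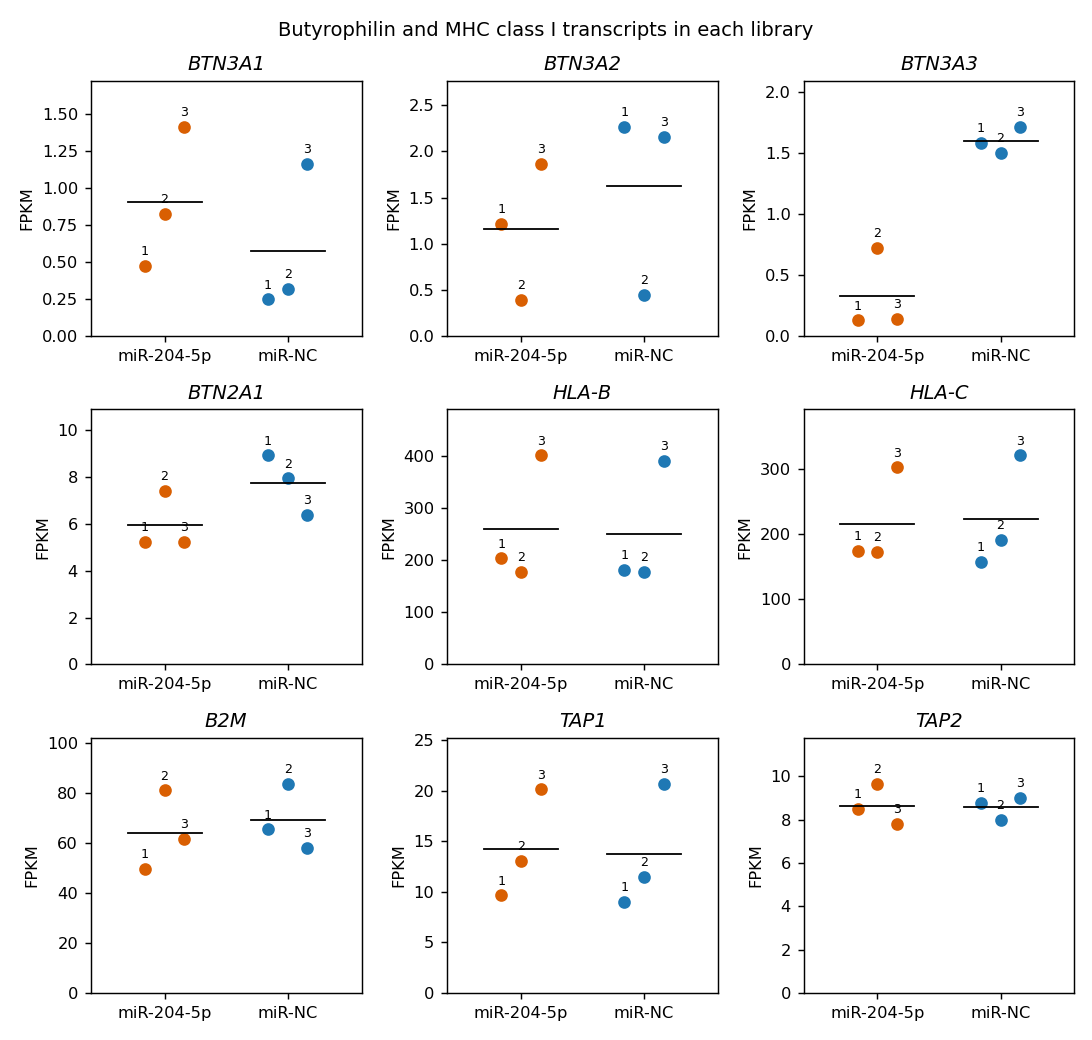
FPKM of each member in the 3 miR-204-5p libraries (orange, left) and the 3 miR-NC libraries (blue, right), with replicate numbers beside the points, a line at each group's mean and every axis starting at 0. BTN3A3 separates the groups, HLA-B, HLA-C, TAP1 and BTN3A1 are highest in replicate 3 of both groups, and TAP2 stays between 7.80 and 9.65 FPKM.

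BTN3A1, the phosphoantigen sensor, pointed the other way from BTN3A3. It had 0.473, 0.825 and 1.41 FPKM in miR-204-5p replicates 1, 2 and 3, against 0.248, 0.321 and 1.16 FPKM in miR-NC replicates 1, 2 and 3. Replicate 3 was the highest library of each group, and the groups overlapped. The log2 difference was 0.29, with 95% limits of -0.36 to 0.93, which do not leave out 0. It was 0.71 with a pseudocount of 0.1, 0.10 with replicate 3 of the miR-204-5p group left out and 0.54 with that of the miR-NC group left out.

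BTN3A2, which lacks the inner B30.2 domain of its relatives, had 1.21, 0.391 and 1.86 FPKM with miR-204-5p, against 2.26, 0.449 and 2.16 FPKM with miR-NC. Its lowest value in each group was replicate 2. The groups overlapped, at a log2 difference of -0.25 with 95% limits of -1.19 to 0.68.

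BTN2A1, the partner of BTN3A1 that the gamma delta T cell receptor contacts, was the most abundant butyrophilin among the members. It had 5.24, 7.41 and 5.22 FPKM with miR-204-5p, against 8.93, 7.95 and 6.40 FPKM with miR-NC, and only miR-204-5p replicate 2 reached into the range of the control. The means were 5.96 ± 1.25 FPKM with miR-204-5p and 7.76 ± 1.27 FPKM with miR-NC (SD, n = 3 each), a log2 difference of -0.34 with 95% limits of -0.82 to 0.15. Both BTN3A3 and BTN2A1 were thus highest in replicate 2 within the miR-204-5p group, and their Pearson correlation over the 6 libraries was 0.804, against 0.061 for BTN3A3 with BTN3A2 and -0.347 for BTN3A3 with BTN3A1. These correlations describe 6 libraries that share their groups. They rest on the values that BTN3A3 was picked on, so nothing is read from them.

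All 4 butyrophilin members lie on the plus strand of chromosome 6 within 1 cluster. In GENCODE 29 (GRCh38) BTN3A2 spans chr6:26365159-26378320, BTN3A1 chr6:26402237-26415216, BTN3A3 chr6:26440472-26453415 and BTN2A1 chr6:26457904-26476621. Among the other expressed genes of the cluster the mean was lower with miR-204-5p in BTN3A2, BTN2A2, BTN2A3P and BTN2A1 and higher in BTN3A1, with overlapping groups in each. The neighbour of BTN3A3, the pseudogene BTN2A3P, had 0.579, 0.325 and 0.28 FPKM with miR-204-5p, against 0.685, 0.47 and 0.432 FPKM with miR-NC, and did not pass the filter. BTN2A2, a relative that dampens T cells in mice, had 1.60, 4.44 and 0.212 FPKM with miR-204-5p, against 3.49, 2.54 and 2.17 FPKM with miR-NC, so that 1 of its miR-204-5p libraries was the highest and another the lowest of all 6. BTN1A1, the milk fat butyrophilin, was listed at 0 in every library.

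**Figure D2:**
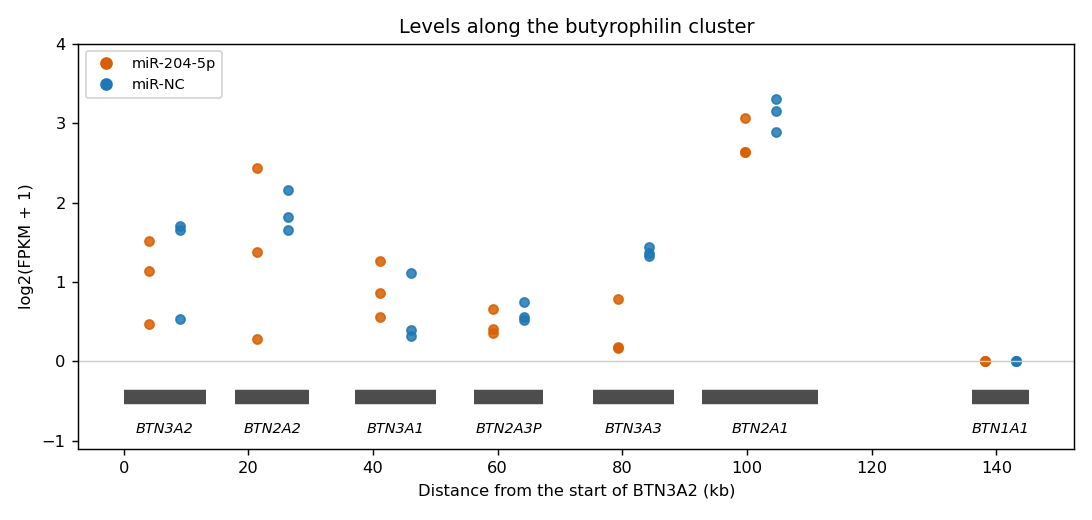
Levels along the butyrophilin cluster as log2(FPKM + 1), with miR-204-5p libraries in orange to the left of miR-NC libraries in blue over each gene, and gene bodies as grey bars at their distance in kb from the start of BTN3A2. BTN3A3 is the gene whose groups stand apart, while BTN2A1 beside it overlaps and BTN1A1 lies at 0.

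The 3 BTN3A genes are close copies, so their shares were compared within each library. BTN3A3 made up 7.04%, 37.3% and 4.07% of the summed FPKM of the 3 genes with miR-204-5p, against 38.7%, 66.1% and 34.0% with miR-NC. The ranges overlapped through miR-204-5p replicate 2 alone, and replicate 2 was also the library of each group in which BTN3A2 was lowest. These shares rest on the values that BTN3A3 was picked on, so nothing is read from their difference between the groups. The summed FPKM was 1.81, 1.94 and 3.41 with miR-204-5p, against 4.10, 2.27 and 5.04 with miR-NC, with overlapping ranges. In the reference transcripts 1.46% of the distinct stretches of 150 bases of BTN3A3 recur exactly in another butyrophilin or HLA gene. For BTN3A1 and BTN3A2 the shares were 1.49% and 1.53%. The length of 150 bases was set for this search, and matches with mismatches were not looked for. How the authors' counting divided shared reads is not stated in the sources used here, and the values of the BTN3A genes are uncertain to that extent.

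**Figure D3:**
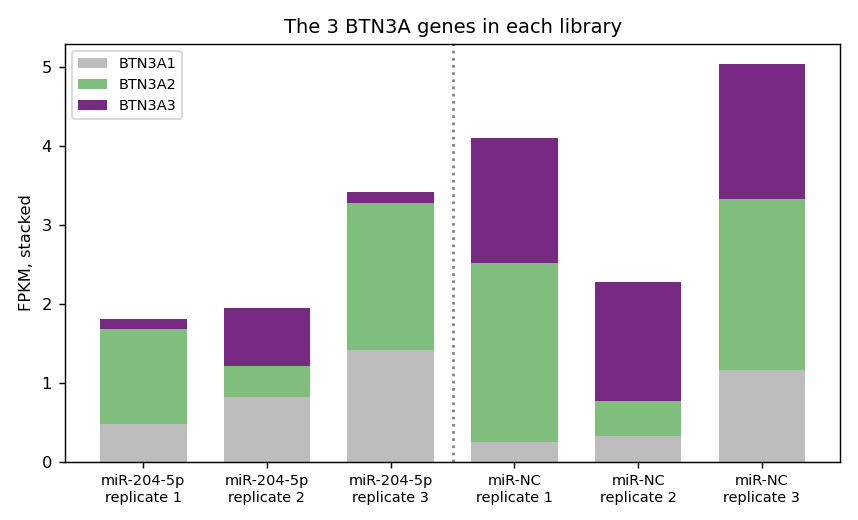
Stacked FPKM of BTN3A1 (grey), BTN3A2 (green) and BTN3A3 (purple), with miR-204-5p libraries to the left of the dotted line and miR-NC libraries to the right. The purple part is thin in miR-204-5p replicates 1 and 3 and wider in replicate 2, and it is between 1.50 and 1.71 FPKM in each miR-NC library.

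HLA-B, HLA-C and B2M were far more abundant than the butyrophilins, and the groups overlapped in all 5 class I members. HLA-B, a classical heavy chain, had 203, 177 and 400 FPKM in miR-204-5p replicates 1, 2 and 3, against 181, 177 and 389 FPKM in miR-NC replicates 1, 2 and 3. HLA-C, the classical heavy chain that also serves many killer cell receptors, had 174, 173 and 303 FPKM with miR-204-5p, against 158, 191 and 321 FPKM with miR-NC. In both genes replicate 3 of each group stood above the other 4 libraries, which lay close together. The log2 difference between the groups was 0.07 for HLA-B, with 95% limits of -0.93 to 1.06, and -0.03 for HLA-C, with limits of -0.83 to 0.77. Without replicate 3 of both groups the limits narrowed to -0.39 to 0.55 for HLA-B and -0.50 to 0.49 for HLA-C.

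B2M, whose product every class I heavy chain needs, had 49.8, 81.1 and 61.8 FPKM with miR-204-5p, against 65.5, 83.7 and 58.3 FPKM with miR-NC. Here replicate 2 was the highest library of each group, unlike in the heavy chains. Its log2 difference was -0.12, with 95% limits of -0.67 to 0.44. The summed FPKM of HLA-B and HLA-C was 7.57, 4.31 and 11.4 times that of B2M with miR-204-5p, against 5.17, 4.39 and 12.2 times with miR-NC, so this ratio varied with the replicate and its ranges overlapped between the groups.

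TAP1, a chain of the peptide pump, had 9.64, 13.1 and 20.1 FPKM with miR-204-5p, against 9.02, 11.4 and 20.7 FPKM with miR-NC. TAP2, the other chain, had 8.51, 9.65 and 7.80 FPKM with miR-204-5p, against 8.79, 7.98 and 9.02 FPKM with miR-NC. The pump's chains did not move together: TAP1 was highest in replicate 3 of each group, while TAP2 had the narrowest range of all members, its highest library at 1.24 times its lowest. TAP1 over TAP2 was 1.13, 1.35 and 2.58 with miR-204-5p, against 1.03, 1.43 and 2.29 with miR-NC. The log2 differences between the groups were 0.08 for TAP1, with 95% limits of -0.78 to 0.93, and 0.01 for TAP2, with limits of -0.37 to 0.38.

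Set in order of their mean FPKM over the 6 libraries, the members ran from HLA-B, HLA-C and B2M through TAP1, TAP2 and BTN2A1 to BTN3A2, BTN3A3 and BTN3A1. The ranges over libraries did not overlap between HLA-C and B2M, between B2M and TAP1, or between BTN2A1 and BTN3A2. All other neighbours in that order overlapped in their ranges. Within each library, however, TAP1 stood above TAP2, at 1.03 to 2.58 times, and above BTN2A1. HLA-B fell below HLA-C in miR-NC replicate 2, at 0.927 times. TAP2 fell below BTN2A1 in miR-NC replicate 1, at 8.79 against 8.93 FPKM. The BTN3A genes also changed order between libraries.

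None of the 8 members other than BTN3A3 reached the threshold of 0.05 in the p adjusted over 13151 genes (limma, Benjamini-Hochberg), where the share called among all tested genes was 0%. At an unadjusted p under 0.05 there were 273 genes, of which 152 had a positive and 121 a negative difference. The adjusted p of each of these 8 members was 1.00, and the lowest adjusted p that any of them reached under another setting was 0.661. Their log2 differences were positive for 4 and negative for 4, with a median of -0.012, beside -0.02 over all tested genes. Of the members' 95% limits, those of TAP2 were the narrowest and those of HLA-B the widest.

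**Figure D4:**
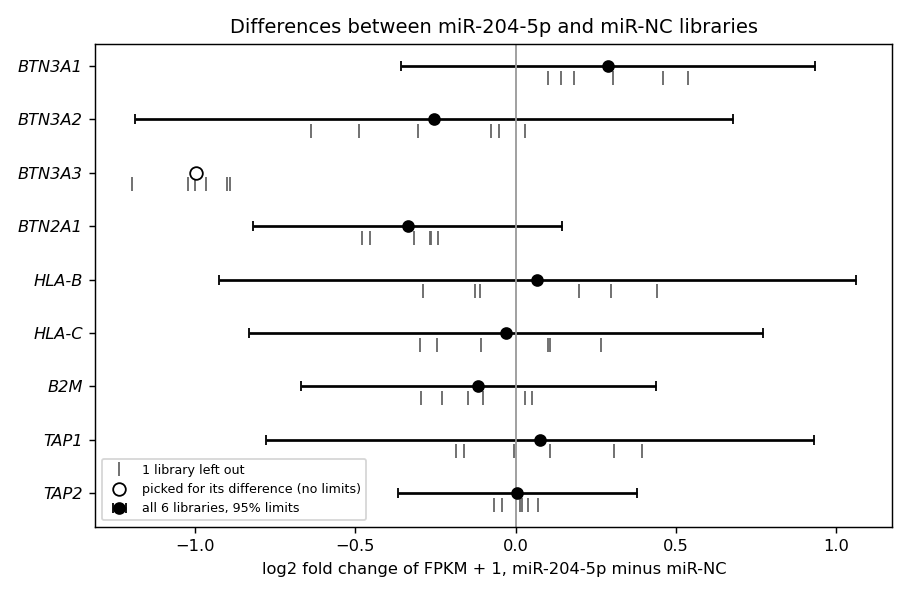
Log2 difference of FPKM + 1, miR-204-5p minus miR-NC, for each member with all 6 libraries (filled points, bars for the 95% limits) and with each library left out in turn (short grey strokes). BTN3A3, picked for its difference, is drawn as an open point without limits. Every bar crosses 0, and for BTN3A2, HLA-B, HLA-C, B2M, TAP1 and TAP2 the strokes lie on both sides of 0.

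Several members differed between replicate numbers within both groups. BTN3A1, HLA-B, HLA-C and TAP1, which are 4 of the 9 members, were higher in both replicate 3 libraries than in the other 4 libraries, where 10.4% of all tested genes did the same. This grouping was noticed in these data and is a description. Averaged over the groups, replicate 3 stood at 2.14 times the other libraries for HLA-B, 1.80 times for HLA-C, 1.89 times for TAP1 and 2.76 times for BTN3A1. It stood at 1.86 times for BTN3A2, whose miR-NC replicate 1 was higher still, and at 0.963 times for TAP2, 0.941 times for BTN3A3, 0.857 times for B2M and 0.787 times for BTN2A1. Over the 6 libraries the Pearson correlation was 0.967 between HLA-B and HLA-C and 0.953 between HLA-C and TAP1, against -0.108 between TAP1 and TAP2 and -0.457 between HLA-B and B2M.

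Other class I heavy chains were also high in replicate 3. HLA-E, a ligand of a natural killer cell receptor, had 61.6, 78.2 and 112 FPKM with miR-204-5p, against 64.4, 74.5 and 127 FPKM with miR-NC. HLA-F, a chain of restricted distribution, had 4.20, 4.24 and 4.41 FPKM with miR-204-5p, against 3.48, 3.35 and 11.0 FPKM with miR-NC, so its high value was nearly all in miR-NC replicate 3. Of 18 other heavy chains and class I-like genes 12 were tested and 0 called, with 2 positive and 10 negative log2 differences and a median of -0.08. Of the 12, 4 were highest in both replicate 3 libraries, beside 10.4% of all tested genes. RAET1G, a stress ligand of the receptor NKG2D, was the 1 tested gene of them that was lower in all miR-204-5p libraries, at 1.92, 2.12 and 2.59 FPKM, against 2.60, 3.28 and 3.40 FPKM with miR-NC. MICB, another ligand of that receptor, did not pass the filter and had 0.125, 0.243 and 0.137 FPKM with miR-204-5p, against 0.343, 0.281 and 0.248 FPKM with miR-NC, likewise without overlap. Of all tested genes 2.17% lay wholly below and 3.77% wholly above with miR-204-5p.

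Genes that make the peptides came next. PSMB8, a catalytic subunit of the immunoproteasome, had 26.6, 23.4 and 40.1 FPKM with miR-204-5p, against 18.3, 19.7 and 30.7 FPKM with miR-NC. PSMB9, another such subunit, had 3.97, 3.58 and 8.60 FPKM with miR-204-5p, against 2.75, 3.40 and 8.06 FPKM with miR-NC. All 10 genes of the immunoproteasome and its activator were tested and 0 called, 8 of them with a positive log2 difference. Of the 10, 7 were highest in both replicate 3 libraries, beside 10.4% of all tested genes. PSME3, an activator subunit, had the largest difference among them, 1.296 with 95% limits of 0.13 to 2.47 and no call after adjustment, at 23.5, 26.0 and 19.7 FPKM with miR-204-5p, against 6.95, 21.0 and 4.27 FPKM with miR-NC.

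Tapasin, the product of TAPBP that bridges TAP and the heavy chain, had a transcript level of 41.2, 35.7 and 55.1 FPKM with miR-204-5p, against 42.8, 43.3 and 67.5 FPKM with miR-NC. All 14 genes of the other loading and trimming list were tested and 0 called, with 4 positive and 10 negative log2 differences and a median of -0.11. Of these, 1 was highest in both replicate 3 libraries, beside 10.4% of all tested genes, and 6 were lowest there, beside 30.4%. ERAP1, the trimming peptidase, had 0.55, 5.02 and 0.554 FPKM with miR-204-5p, against 3.79, 4.93 and 0.626 FPKM with miR-NC, and CANX, the chaperone calnexin, had 57.0, 73.9 and 54.3 FPKM with miR-204-5p, against 75.8, 96.5 and 13.0 FPKM with miR-NC.

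Genes that control class I transcription were taken as 1 list, of promoter-binding factors and of the interferon receptors, kinases and inhibitors upstream of them. NLRC5, the class I transactivator, had 1.18, 1.01 and 0.75 FPKM with miR-204-5p, against 0.95, 0.82 and 1.04 FPKM with miR-NC. IRF1, an interferon-induced factor, had 4.80, 9.0 and 4.34 FPKM with miR-204-5p, against 5.38, 9.65 and 5.97 FPKM with miR-NC, highest in replicate 2 of each group. Of the 29 genes of this list 28 were tested and 0 called, 10 with a positive and 18 with a negative log2 difference. Of the 28, 5 were highest and 12 lowest in both replicate 3 libraries, where 10.4% of all tested genes were highest and 30.4% lowest.

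Most of the interferon-stimulated genes were also highest in replicate 3. Of the 49 genes listed in the data, 38 were tested. Of these, 31 were higher in both replicate 3 libraries than in the other 4, beside 10.4% of all tested genes. The summed FPKM of the list was 517, 764 and 3509 with miR-204-5p, against 430, 604 and 3722 with miR-NC. ISG15, a ubiquitin-like modifier, had 26.9, 58.4 and 897 FPKM with miR-204-5p, against 18.7, 54.6 and 1019 FPKM with miR-NC, and IFITM3, a membrane protein that blocks virus entry, had 261, 355 and 1136 FPKM with miR-204-5p, against 188, 235 and 1047 FPKM with miR-NC. Between the groups 0 of the 38 were called, with 13 positive and 25 negative log2 differences. PSMB8 and PSMB9 stand in both this list and that of the immunoproteasome, and the part of the interferon genes' spread in the values of the members was not tested.

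**Figure D5:**
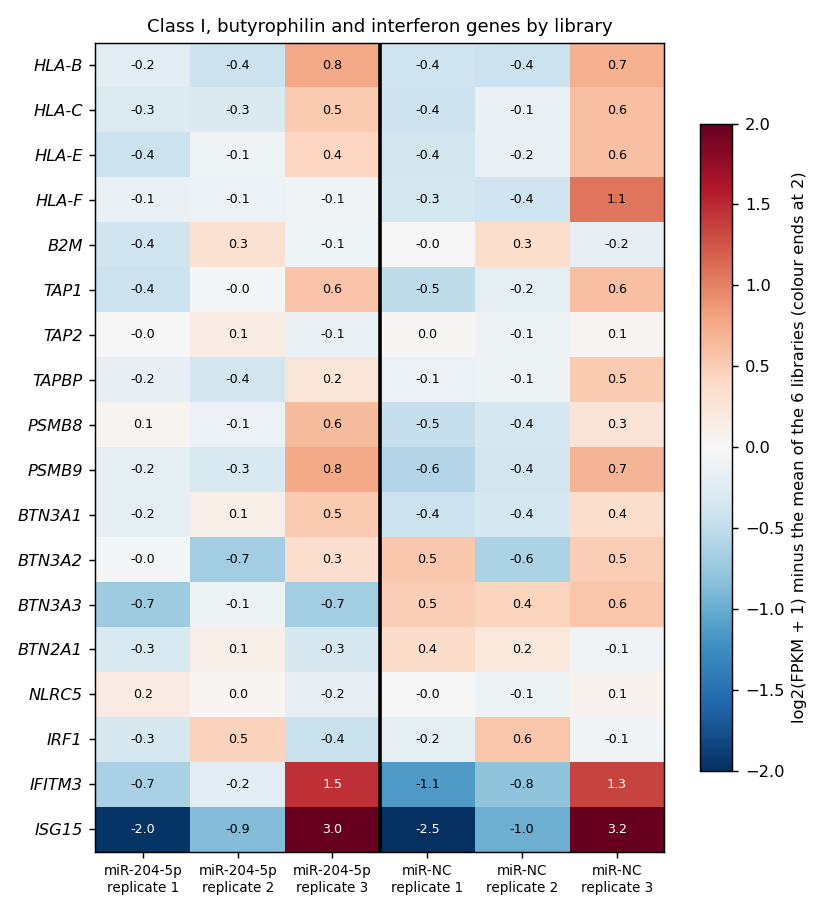
Log2(FPKM + 1) minus the mean of the 6 libraries, for class I, loading, butyrophilin and interferon genes, with miR-204-5p libraries left of the black line and miR-NC libraries right of it; the colour scale ends at 2. The replicate 3 columns of both groups are red for HLA-B, HLA-C, HLA-E, TAP1, PSMB9, IFITM3 and ISG15, while B2M and TAP2 are pale and BTN3A3 changes colour at the line.

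The other families on the way to these proteins held no call. Of 14 other butyrophilin and B7-related genes present, 5 were tested and 0 called, with 2 positive and 3 negative log2 differences. CD276, an immune checkpoint ligand of the B7 family, had its highest values in 1 library of each group, at 4.36, 30.1 and 2.72 FPKM with miR-204-5p, against 7.84, 7.24 and 26.8 FPKM with miR-NC. A further list of 14 genes joined enzymes of the isoprenoid route, which makes the phosphoantigen bound by BTN3A1, with genes of its export (ABCA1, APOA1) and others tied to BTN3A1 (PPL, RHOB, PRKAA1). Of these 14, all but APOA1 were tested and 0 called, with 7 positive and 6 negative log2 differences. FDPS, the farnesyl diphosphate synthase of the route, had 47.5, 37.5 and 39.8 FPKM with miR-204-5p, against 40.7, 32.1 and 30.4 FPKM with miR-NC.

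Genes that move class I molecules through the cell and to decay, 16 in the table and all tested, also held 0 calls, with 6 positive and 10 negative. RAB22A, a small GTPase of class I recycling, had 2.96, 3.05 and 1.91 FPKM with miR-204-5p, against 6.61, 5.93 and 3.70 FPKM with miR-NC. All 3 values lay below those of the control, as in 2.17% of all tested genes, while 3.77% of tested genes lay wholly above. The lists of loading and trimming, of class I control and of the isoprenoid route each held 1 tested gene wholly above the control and 0 wholly below. Class II genes, 5 tested of 14, held 0 calls, and CD74, the invariant chain, had 6.44, 7.10 and 12.7 FPKM with miR-204-5p, against 7.14, 7.44 and 15.6 FPKM with miR-NC.

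Promoters of the members are shown because several of these genes were high in the same libraries as the interferon-stimulated genes and others were not. RefSeq windows from 250 bases before to 50 after each start (GRCh38.p14) were found for 8 of the 9 members, and BTN3A1 had no entry. The core letters of an interferon response element, AANNGAAA or TTTCNNTT on the other strand, are in capitals, and neighbouring matches can overlap. Not every match is shown. Counted in bases from the start, further matches lie at 40 in BTN3A2, at 36 and 42 in BTN3A3 and at -188 in BTN2A1. The match shown for BTN2A1 begins at 4, after the start. Stretches are read on the strand of the gene, and TAP1, TAP2, HLA-B and HLA-C lie on the minus strand. BTN3A2 is from chr6:26365086-26365125, BTN3A3 from chr6:26440388-26440427, BTN2A1 from chr6:26457942-26457981, HLA-B from chr6:31357311-31357350, HLA-C from chr6:31272220-31272259, B2M from chr15:44711362-44711401, TAP1 from chr6:32853812-32853851 and TAP2 from chr6:32838775-32838814.
BTN3A2: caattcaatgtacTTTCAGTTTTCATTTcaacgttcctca
BTN3A3: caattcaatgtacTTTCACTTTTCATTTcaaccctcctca
BTN2A1: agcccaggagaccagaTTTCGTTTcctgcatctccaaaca
HLA-B: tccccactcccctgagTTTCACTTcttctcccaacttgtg
HLA-C: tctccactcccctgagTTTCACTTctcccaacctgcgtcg
B2M: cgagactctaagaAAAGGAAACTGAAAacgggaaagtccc
TAP1: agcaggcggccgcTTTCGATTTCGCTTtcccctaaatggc
TAP2: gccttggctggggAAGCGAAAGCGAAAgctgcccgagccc

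These core letters were in 8 of the 10 windows of the members, 1 window for each of the 8 genes, and in 22.8% of the 35116 windows of the table. The second windows of BTN3A2 and TAP1 held none. The letters were in the windows of HLA-B, HLA-C and TAP1, which were highest in both replicate 3 libraries, and in those of B2M, TAP2, BTN3A3, BTN3A2 and BTN2A1, which were not. TGACG, or CGTCA on the other strand, the half-site that cAMP response element factors bind, was in the windows of HLA-B, HLA-C, B2M and TAP2 and in 24.6% of all windows. The windows of BTN3A2 and BTN3A3 were identical at 82.3% of aligned positions and those of HLA-B and HLA-C at 88.5%. A match describes these letters in this window, and no binding was measured.

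Annotation sets limits for some members. In GENCODE 29 HLA-B spans chr6:31269491-31357188 on the minus strand and shares 2640 bases of its span with HLA-C on the same strand, at chr6:31268749-31272130, so how reads there were divided is uncertain. None of the stretches of 150 bases in the reference transcripts of HLA-B and HLA-C recur in another HLA or butyrophilin gene, although the alleles of ARPE-19 can differ from the reference. TAP1, at chr6:32845209-32853978, lies wholly within the span of PSMB9 on the opposite strand. The sources used here do not state whether the counting used the strand. TAP2 lies at chr6:32821833-32838780 and is spanned by AL669918.1 on the same strand, which stayed at or under 0.131 FPKM. B2M lies at chr15:44711487-44718877 on the plus strand.

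The genes whose levels over the 6 libraries were most like those of 2 members were found by Pearson correlation of log2(FPKM + 1) over the tested protein-coding genes. For BTN3A3 they were COL17A1 at 0.985, PLAT at 0.985, PRKCH at 0.985, SLCO4A1 at 0.983 and COL7A1 at 0.975. PLAT, tissue plasminogen activator, had 10.3, 14.4 and 8.82 FPKM with miR-204-5p, against 24.0, 19.9 and 22.9 FPKM with miR-NC, and SLCO4A1, an organic anion transporter, had 51.3, 64.8 and 48.3 FPKM with miR-204-5p, against 81.7, 90.5 and 84.8 FPKM with miR-NC. Like BTN3A3, both were lower in every miR-204-5p library and highest within that group in replicate 2. They were chosen for their likeness to BTN3A3, so nothing is read from this shared pattern. For HLA-B they were UNC93B1 at 0.997, AP001453 at 0.994, MOB3A at 0.991, and SAA1 and CDC26 at 0.990 each. UNC93B1, which carries Toll-like receptors to endosomes, had 6.79, 5.82 and 11.9 FPKM with miR-204-5p, against 5.92, 5.92 and 12.6 FPKM with miR-NC. The 6 points share their groups and libraries, so these correlations are a description.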

How the data were processed

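Per the labels' protocols, poly(A) RNA of ARPE-19 cells was made into dUTP-marked libraries and read as paired ends. The authors deposited FPKM values for 60612 genes, 1 column per library, writing 0.0001 for 0. The submitters' processing notes name DESeq2, edgeR, StringTie 1.3.4d, HISAT2 2.0.4, cutadapt 1.9 and the build GRCh38, with no role for each. Beside the FPKM the authors deposited a ratio of the group means (fold), its log2, and a p-value and q-value per gene from a tool that the sources used here do not name.

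Values of 0.0001 were read as 0. Genes with at least 0.5 FPKM in at least 3 libraries (13151) were fitted with limma 3.58.1 (R 4.3.3, intensity trend, two-sided) on log2(FPKM + 1), without covariates, with Benjamini-Hochberg adjustment and a threshold of 0.05. This scale understates changes of low genes. The fit was tested on simulated data with independent noise in each library, unlike these libraries, which share a leading axis. Changes were simulated only in genes above the level of the BTN3A members. Python 3.11.15, numpy 2.4.6 and pandas 2.3.3 gave the rest. The rough depth took the commonest product of FPKM and length among genes with 1 transcript as 1 read pair; only 29.2% to 36.7% of low values lay within 1% of a multiple of 0.5 steps. P-values measure the spread between these libraries. Replicate numbers were not taken as pairs.

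Members, lists, alternatives and tests were chosen with earlier results of these data known. The text names all members, a fixed set of class I and butyrophilin genes whatever they showed (a few genes of that set are not reported here), and genes from the 2 of highest level and the 2 of largest log2 difference per list, plus the 5 genes most like BTN3A3 and HLA-B. RN7SK, BTN2A3P, BTN1A1, AL669918.1, MICB, TRDC, LYZ, ABCA1, APOA1, RHOB, PRKAA1, THY1, COL1A2 and the markers at or near 0 were named after their values were seen. So were TRAC, CD2, POSTN, PMEL, RDH5, BEST1, RLBP1 and MITF. Sites came from GENCODE 29 and promoters and the microRNA from RefSeq (GRCh38.p14).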

Additional observations from a re-analysis of the deposited data

How the results depend on the processing

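Of 116 values of the members under the alternatives, 101 kept their direction and 15 turned, 14 of these when libraries were left out. The 116 and the 101 include the values of BTN3A3, which was picked for its direction. Among the 8 members other than BTN3A3, 0 were called under any of the 13 alternatives. Genes called ranged from 0 to 3 with 1 library left out, 3 without miR-204-5p replicate 2, and were 0 under the other alternatives. With 1 library left out, log2 differences ran from -0.637 to 0.0303 for BTN3A2, -0.290 to 0.441 for HLA-B, -0.297 to 0.265 for HLA-C, -0.296 to 0.0502 for B2M, -0.186 to 0.395 for TAP1 and -0.0676 to 0.0701 for TAP2. HLA-B was -0.027 after quantile normalization, where the cause was not tested. BTN3A1 and BTN2A1 kept their direction throughout, with 0.10 to 0.54 for BTN3A1 and -0.48 to -0.24 for BTN2A1 when 1 library was left out. BTN3A1 had no value under the filter at 1 FPKM, which it did not pass. BTN3A3 kept its direction too, but it was picked for lower values in these libraries, so this is no support. Genes with groups that do not overlap numbered 782, and 1647 without the filter, where more genes enter. The fit with the replicate block gave 95% limits of -0.01 to 0.59 for BTN3A1, -0.64 to 0.13 for BTN3A2 and -0.74 to 0.07 for BTN2A1, and called 0 genes, with 941 at an unadjusted p under 0.05. The deviations of same-numbered libraries from their group means correlated at 0.042, 0.55 and 0.522 for replicates 1, 2 and 3. The best match of miR-204-5p replicate 1 was miR-NC replicate 3 at 0.16, so the numbers are not taken as pairs. Leaving out replicate 3 of both groups was chosen after seeing the data, and it gave 0 called genes. Values under 1 FPKM rest on few reads, which limits the BTN3A genes most.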
